A study of Homo sapiens with 6 samples.

Results

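Homologous recombination copies an intact sister chromatid to mend a broken chromosome, and the Fanconi anaemia pathway unhooks DNA crosslinks and hands the resulting breaks to recombination. The expression of 41 genes of these pathways was measured by bulk RNA-seq in the human osteosarcoma line U-2 OS 24 h after 4 Gy of ionizing radiation (IR) and in untreated cells. The 41 genes were listed by symbol, out of 21447 genes in the files, and all 41 were among the 14323 genes with enough counts for the test. The U-2 OS cells were unsynchronized, all of 1 line grown in DMEM with fetal bovine serum, and the groups differed by the label only in the irradiation. Each group held 3 libraries, which the study calls independent samples. Whether each came from a culture of its own is not given in the sources used here, and p-values measure the spread between these libraries. By the labels the RNA was poly(A)-selected with an mRNA kit, and by the study's methods a total RNA kit was used.

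In recombination, the ends of a break are cut back to single strands by nucleases that MRE11, RAD50, NBN and RBBP8 start off. BRCA1 with BARD1 promotes this step, PALB2 joins BRCA1 to BRCA2, and BRCA2 loads the recombinase onto the single strand with help from its paralogs. In the Fanconi pathway a core complex attaches ubiquitin to the FANCI-FANCD2 pair, which then brings nucleases to the crosslink. Many of these genes are transcribed mainly in cells that are in or near S phase, when a sister chromatid is at hand.

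The libraries held 18573309 to 22953834 estimated counts, apart from IR replicate 3 with 45308792. The counts of IR replicate 3 were also the furthest from those of its group, with a chi-square per gene of 26.5 and 29.4 against the other IR libraries, beside 5.69 between these and 3.36 to 8.79 among the untreated ones. Its deposited table is marked rep, and the sources used here do not say what the mark stands for. Values are given as CPM, a gene's counts relative to the TMM-scaled size of its library, and gene level differences are log2 fold changes of IR against untreated from edgeR's quasi-likelihood test with Benjamini-Hochberg adjustment over all 14323 genes. A gene is called lower or higher where its adjusted p is under 0.05. The p53 targets CDKN1A, the p21 cell cycle inhibitor, and MDM2, the ubiquitin ligase of p53, were looked at for the treatment. The study reports both among its most induced genes in this bulk RNA-seq, so they are no independent check. CDKN1A had 122, 124 and 120.3 CPM in untreated replicates 1, 2 and 3 and 322, 341 and 390.0 CPM in IR replicates 1, 2 and 3. MDM2 had 135, 141 and 146 CPM against 216, 215 and 209 CPM, so that both genes were higher in each irradiated library than in any untreated one, with log2 fold changes of 1.52 and 0.60. All 8 mesenchymal markers were detected, at a summed 6983 to 7634 CPM in untreated and 7466 to 8170 CPM in IR libraries. Epithelial markers summed to 18.3 to 21.8 CPM over all libraries, with 3 of 6 over 1 CPM, and endothelial markers to 3.61 to 5.91 CPM with 1 of 4. Haematopoietic markers summed to 8.26 to 10.4 CPM in untreated and 13.7 to 14.4 CPM in IR libraries, with 3 of 6 over 1 CPM and CD3E at 0, and the part of other cells in the results was not tested.

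The recombination and Fanconi genes were mostly lower after IR. Of the 41 genes, 22 were called lower, against a background of 14.5% of all tested genes, and 2 were called higher, RAD51B and BABAM1, against a background of 15.5%. The other 17 were not called in either direction. An unadjusted p under 0.05 was found for 27 of the 41, and its share over all tested genes is not given here. The log2 fold change was below 0 for 32 of the 41 genes, beside 6969 of the 14323 tested genes. Its median was −0.28, beside 0.01 over all tested genes. All 3 irradiated libraries lay below all 3 untreated ones for 25 genes, against a background of 23.3%, and above them for 2 genes, against a background of 23.8%. The sum over the 41 genes was 2088, 2106 and 2177 CPM in untreated replicates 1, 2 and 3 and 1845, 1762 and 1726 CPM in the IR replicates, and these sums did not overlap. In a bulk sample, fewer cells of a type and less RNA per cell cannot be told apart. The genes called lower with a log2 fold change below −0.5 were 6 of 41, beside 3.74% of all tested genes: BRCA1, BARD1, BRIP1, BRCA2, FANCB and FANCM.

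**Figure D1:**
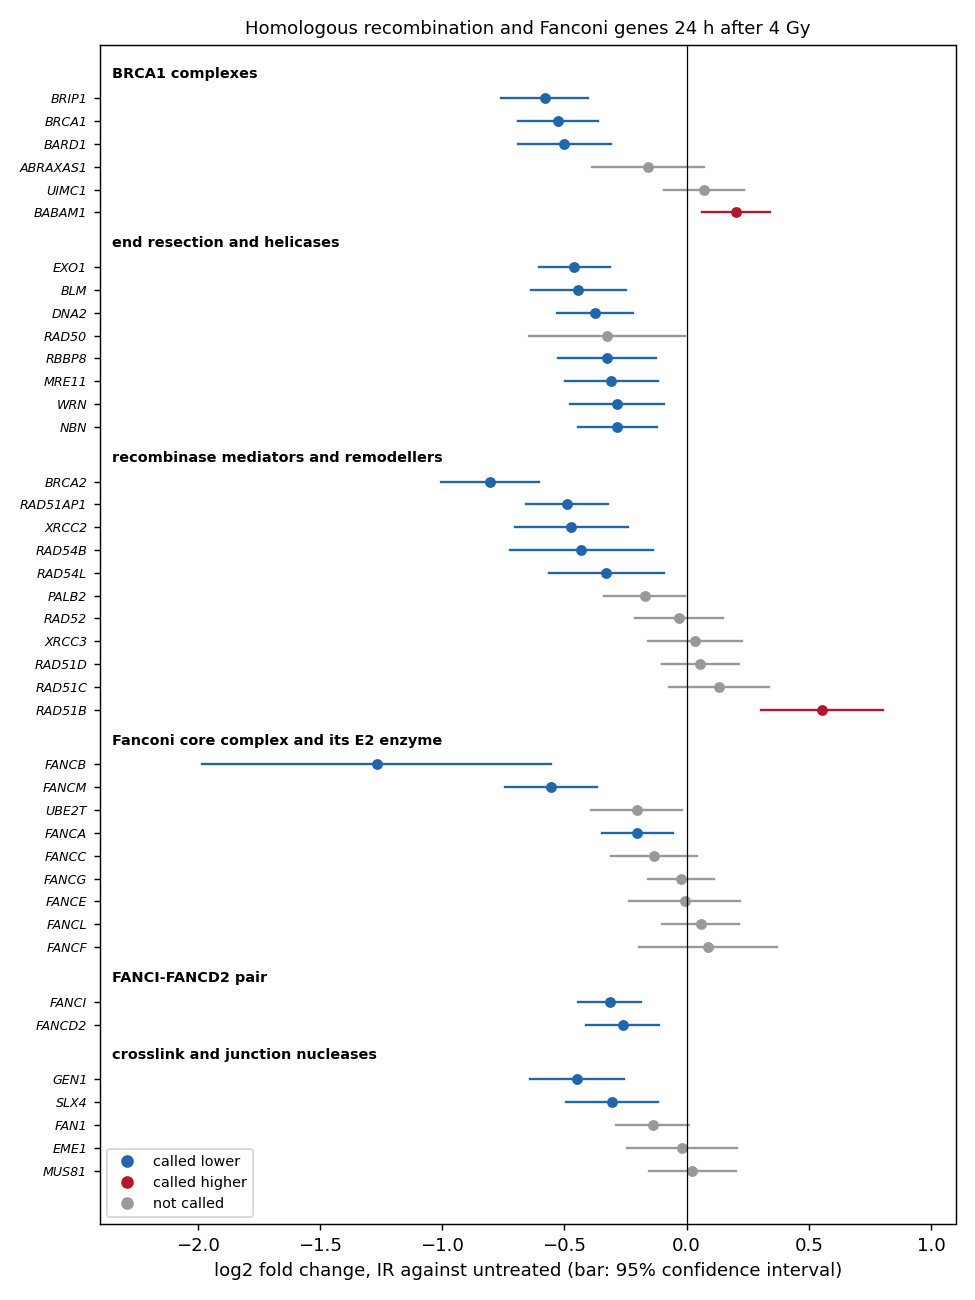
Log2 fold change of IR against untreated for each of the 41 genes, grouped by role, with bars for the 95% confidence interval. Of the 41 genes 22 are called lower and 2, RAD51B and BABAM1, are called higher, and FANCB has both the lowest value, at −1.27, and the widest interval.

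The upstream sequences of 3 genes are shown because BARD1, which was called lower, and FANCE, which was not called, carry the same number of GC boxes, whereas FANCM, also called lower, carries CCAAT boxes in their place. Each line gives the 250 bases before the gene's start in RefSeq on GRCh38.p14, on the gene's strand and 5′ to 3′, at chr2:214809684-214809933 on the minus strand, chr14:45135680-45135929 on the plus strand and chr6:35452088-35452337 on the plus strand. No annotated exon lies in these windows. Capitals mark the GC box, GGGCGG or its reverse complement CCGCCC, which Sp1-type factors bind, and the CCAAT box, CCAAT or its reverse complement ATTGG, which NF-Y binds.
BARD1: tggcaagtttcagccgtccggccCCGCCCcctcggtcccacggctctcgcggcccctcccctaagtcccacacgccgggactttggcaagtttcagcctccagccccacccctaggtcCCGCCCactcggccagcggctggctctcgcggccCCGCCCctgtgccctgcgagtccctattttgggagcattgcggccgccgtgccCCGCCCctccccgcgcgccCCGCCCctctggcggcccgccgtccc
FANCM: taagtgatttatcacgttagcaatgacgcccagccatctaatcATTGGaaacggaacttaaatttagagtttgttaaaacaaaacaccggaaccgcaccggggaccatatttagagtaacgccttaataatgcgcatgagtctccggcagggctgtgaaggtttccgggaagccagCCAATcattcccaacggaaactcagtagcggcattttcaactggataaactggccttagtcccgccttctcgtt
FANCE: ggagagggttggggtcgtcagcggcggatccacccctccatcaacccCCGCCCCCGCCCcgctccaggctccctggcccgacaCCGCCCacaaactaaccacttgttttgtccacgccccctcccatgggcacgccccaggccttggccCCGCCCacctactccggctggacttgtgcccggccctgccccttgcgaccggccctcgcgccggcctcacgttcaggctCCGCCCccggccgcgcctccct
BARD1 and FANCE each held 5 GC boxes and no CCAAT box, and FANCM held 2 CCAAT boxes and no GC box. RefSeq start sites were matched for 36 of the 41 genes, in 49 windows from 250 bases before to 50 after a start, on both strands. DNA2, FANCI, NBN, RAD54B and WRN had no entry. A GC box was found in 33 of 49 windows (67.3%), beside 45% of the 35116 windows of all genes. By gene, 26 of the 36 matched genes had one, and 15 of the 17 matched genes called lower, all but BRCA2 and FANCM. The 3 genes shown are thus not typical of the split by call. Whether GC boxes go with the call was not tested. A CCAAT box was found in 16 of 49 (32.7%), beside 34.6%, and by gene in 15 of the 36 and in 9 of the 17. The letters TTTGAA, the core of the cell cycle homology element, were found in 3 windows (6.12%), of BRIP1, FANCC and UBE2T, beside 15.2%. The E2F letters TTTCCCGC or TTTGGCGC were found in 3 windows (6.12%), of FANCC, FANCD2 and XRCC2, beside 2.27%. A match is a description of letters and not a bound site, and several windows of 1 gene overlap.

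The BRCA1 complexes held 6 of the genes, of which 3 were called lower and 1 higher, beside 14.5% and 15.5% of all tested genes. BRCA1 (ENSG00000012048, GRCh38 chr17:43044295-43170245), a ubiquitin ligase and scaffold of repair complexes, had 108, 113 and 117 CPM in untreated replicates 1, 2 and 3 and 85, 77.3 and 72.7 CPM in the IR replicates. The groups did not overlap, with a log2 fold change of −0.53 (SE 0.07, adjusted p = 0.00125). BARD1 (ENSG00000138376, GRCh38 chr2:214725646-214809683), its obligate partner in the ligase, had 29.3, 29.8 and 32.5 CPM against 23.6, 20.3 and 20.9 CPM. Each irradiated library lay below each untreated one, and the log2 fold change of −0.50 (SE 0.09, adjusted p = 0.00266) was close to that of BRCA1. BRIP1 (ENSG00000136492, GRCh38 chr17:61679139-61863559), a helicase that binds BRCA1 and is also the Fanconi protein FANCJ, had 94.3, 96 and 90.8 CPM against 69.5, 62 and 57 CPM. Its groups did not overlap either, with a log2 fold change of −0.58 (SE 0.08, adjusted p = 0.00118). These 3 genes stayed called in each of the 14 alternative analyses.

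The other 3 genes encode BRCA1-A, the complex that holds BRCA1 at ubiquitin marks on damaged chromatin. BABAM1 (ENSG00000105393, GRCh38 chr19:17267376-17281249), a scaffold subunit, had 61.5, 62 and 64.1 CPM in untreated and 71.3, 73.6 and 70.9 CPM in IR replicates. The irradiated libraries all lay above the untreated ones, with a small log2 fold change of 0.20 (SE 0.06, adjusted p = 0.0335). That call was kept in 1 of 6 analyses that left out a library, the one without IR replicate 3, and ended with the GC trend removed, at 0.05 (adjusted p = 0.648). ABRAXAS1, the central subunit, and UIMC1, the ubiquitin reader, were not called, at −0.16 and 0.07. ABRAXAS1, at a mean of 25.5 TPM over the 6 libraries, shares 1956 exonic bases with MRPS18C on the opposite strand, which was at 203 TPM.

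Of the 8 genes of end resection and its helicases 7 were called lower, beside 14.5% of all tested genes. All 8 had a log2 fold change below 0, beside 6969 of the 14323 tested genes. With the GC trend removed 2 of the 8 were called lower, beside 12.1% of all tested genes. With an offset for effective length 1 was, beside 6.11%. MRE11 (ENSG00000020922, GRCh38 chr11:94415570-94493885), the nuclease that makes the first cut, had 67.7, 60.6 and 72 CPM in untreated and 57.3, 55.1 and 49.7 CPM in IR replicates. The groups did not overlap, with a log2 fold change of −0.31 (SE 0.09, adjusted p = 0.022). NBN, the subunit that ties this complex to checkpoint signalling, had 83.8, 87.5 and 88.3 CPM against 77.2, 70 and 66.6 CPM. It too showed no overlap, with a log2 fold change of −0.28 (SE 0.07, adjusted p = 0.0159). RAD50 (ENSG00000113522, GRCh38 chr5:132556019-132646349), the ATPase that bridges the ends, had 65.6, 64 and 62 CPM against 63.8, 51.1 and 38.9 CPM. IR replicate 1 lay within the untreated range and IR replicate 3 far below it, and RAD50 was not called, with a log2 fold change of −0.33 (SE 0.14, adjusted p = 0.112). RAD50 was called lower without IR replicate 1 and by the DESeq2 Wald test. RAD50 shares 8124 exonic bases on the same strand with the readthrough gene ENSG00000283782, between which kallisto could split its reads.

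EXO1 (ENSG00000174371, GRCh38 chr1:241847967-241895148), the exonuclease of long-range resection, had 56.8, 55.6 and 57.7 CPM in untreated and 43, 41 and 39.8 CPM in IR replicates. The libraries of each group lay close together and far from the other group, with a log2 fold change of −0.46 (SE 0.07, adjusted p = 0.00131), and EXO1 stayed called in each of the 14 alternatives. The nuclease and helicase DNA2, which works with BLM or WRN on the other resection route, was called lower at −0.37. The RecQ helicases BLM and WRN were called lower at −0.44 and −0.29. RBBP8, also named CtIP, the cofactor that switches on MRE11, was called lower at −0.32.

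**Figure D2:**
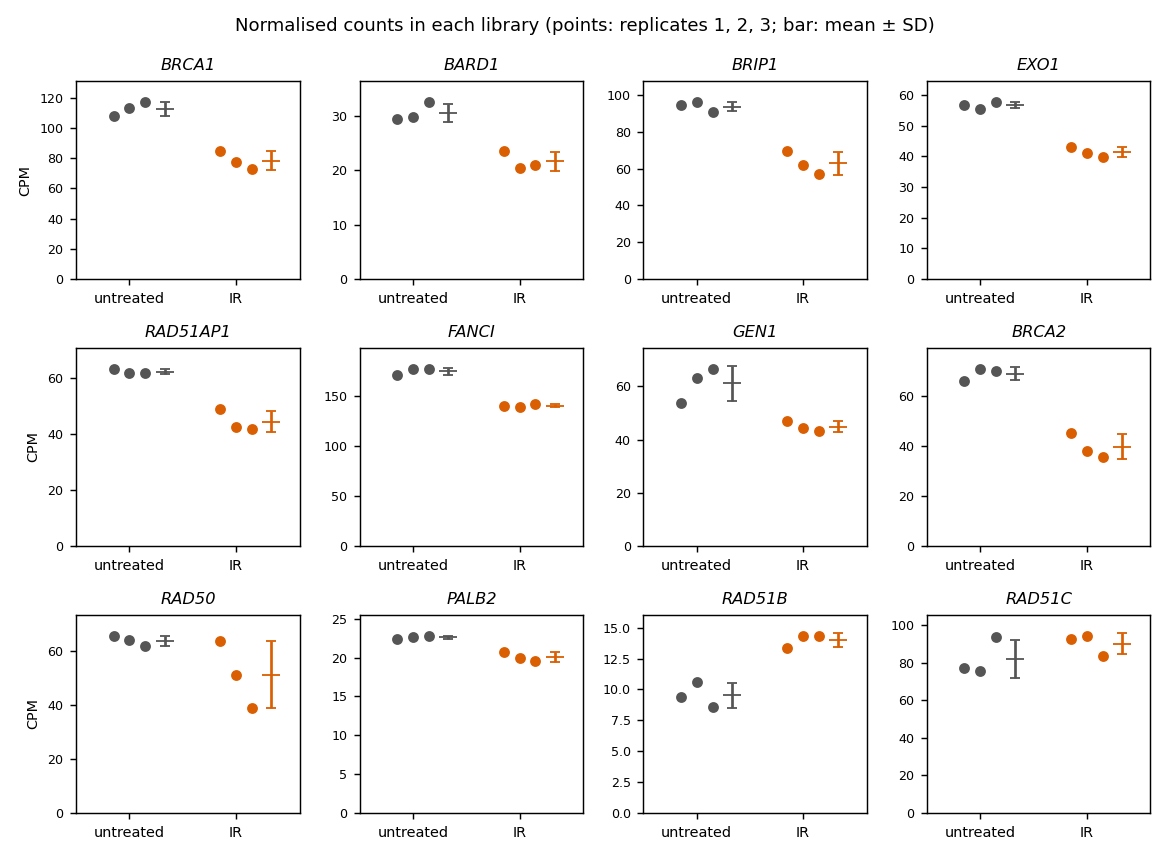
CPM of 12 of the genes in each of the 6 libraries, with points for replicates 1, 2 and 3 and a bar for the mean ± SD beside them. The groups are apart for BRCA1, BARD1, BRIP1, EXO1, RAD51AP1, FANCI, GEN1, BRCA2 and PALB2, all lower after IR, and for RAD51B, higher after IR, whereas those of RAD50 and RAD51C overlap.

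Of the 11 mediators and remodellers of the recombinase 5 were called lower and 1 higher, beside 14.5% and 15.5% of all tested genes. BRCA2 (ENSG00000139618, GRCh38 chr13:32315086-32400268), the loader of the recombinase, had 65.9, 70.5 and 69.9 CPM in untreated replicates 1, 2 and 3 and 45.1, 37.8 and 35.7 CPM in the IR replicates. The highest irradiated library lay well below the lowest untreated one, with a log2 fold change of −0.80 (SE 0.09, adjusted p = 0.000498), and BRCA2 had the lowest p of the 41 genes. PALB2 (ENSG00000083093, GRCh38 chr16:23603160-23641321), which joins BRCA2 to BRCA1, had 22.4, 22.7 and 22.8 CPM against 20.8, 20 and 19.6 CPM. Its groups did not overlap and its spread was small, but the log2 fold change of −0.17 (SE 0.07, adjusted p = 0.108) did not pass the test, with a 95% confidence interval of −0.34 to −0.01. Whether the fold changes of BRCA2 and PALB2 differ was not tested.

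The recombinase paralogs, which remodel the filament, went different ways. RAD51B (ENSG00000182185, GRCh38 chr14:67819779-68730218) had 9.39, 10.6 and 8.55 CPM in untreated and 13.4, 14.3 and 14.3 CPM in IR replicates. It was low in every library and higher in each irradiated one, with a log2 fold change of 0.56 (SE 0.11, adjusted p = 0.0058), and it was called in all 6 analyses that left out a library. XRCC2 was called lower at −0.47. RAD51C and RAD51D were not called, at 0.13 and 0.06. XRCC3 (ENSG00000126215, GRCh38 chr14:103697609-103715504), the partner of RAD51C, had 28.4, 30.5 and 26.7 CPM against 27.2, 28.7 and 31.5 CPM, which overlapped, with a log2 fold change of 0.03 (SE 0.09, adjusted p = 0.792). XRCC3 shares 5756 exonic bases on the opposite strand with KLC1, whose mean TPM was higher, and the sources used here do not say whether strand was used in the assignment.

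RAD52 (ENSG00000002016, GRCh38 chr12:911736-990053), which anneals single strands, had 25.3, 23.1 and 21.8 CPM in untreated and 22.6, 23 and 23.1 CPM in IR replicates. The irradiated values lay within the untreated range, with a log2 fold change of −0.03 (SE 0.08, adjusted p = 0.807) and an interval of −0.21 to 0.15. RAD51AP1, which stimulates strand invasion, was called lower at −0.49, and the DNA translocases RAD54L and RAD54B at −0.33 and −0.43. RAD54B shares 3511 exonic bases on the same strand with FSBP. RAD54L, at a mean of 26.6 TPM, shares 813 on the opposite strand with LRRC41, at 15.45 TPM.

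Among the Fanconi core complex and UBE2T, the ubiquitin-conjugating enzyme it works with, 3 of 9 genes were called lower and none higher. These shares were 14.5% and 15.5% over all tested genes. FANCB (ENSG00000181544, GRCh38 chrX:14690388-14873255), a structural subunit on the X chromosome, had 8.56, 8.07 and 8.99 CPM in untreated and 3.05, 1.58 and 5.47 CPM in IR replicates. These rest on few reads, with 156, 181 and 184 counts in untreated and 63, 29 and 247 counts in IR libraries. The groups did not overlap but the irradiated ones differed several-fold among themselves, with a log2 fold change of −1.27 (SE 0.32, adjusted p = 0.0153). Without IR replicate 3 the value was −1.88 and without IR replicate 2 it was −0.97. The call ended without untreated replicate 3, at −1.23 (adjusted p = 0.0530), and with the length offset, at −0.46 (adjusted p = 0.212).

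FANCM (ENSG00000187790, GRCh38 chr14:45135930-45200890), the translocase that anchors the core complex at stalled forks, had 35.2, 36.9 and 41.7 CPM in untreated and 25.8, 27.1 and 24.9 CPM in IR replicates. The groups were clearly apart, with a log2 fold change of −0.55 (SE 0.08, adjusted p = 0.00165). FANCA (ENSG00000187741, GRCh38 chr16:89726683-89816977), a large core subunit, had 70.5, 75 and 71 CPM against 62.9, 60.4 and 64.9 CPM. The groups did not overlap, with a log2 fold change of −0.20 (SE 0.07, adjusted p = 0.0406), and FANCA stayed called in 1 of 6 analyses that left out a library, the one without IR replicate 3. It shares 2409 exonic bases on the opposite strand with ZNF276. The remaining core genes FANCC, FANCE, FANCF and FANCG, the ligase FANCL and UBE2T were not called, with log2 fold changes from −0.20 for UBE2T to 0.09 for FANCF. FANCL, at a mean of 41.7 TPM, shares 452 exonic bases with VRK2 on the opposite strand, at 72.7 TPM.

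Both genes of the FANCI-FANCD2 clamp, which takes the ubiquitin, were called lower, beside 14.5% of all tested genes. FANCD2 (ENSG00000144554, GRCh38 chr3:10026370-10101932) had 97.8, 92.2 and 103 CPM in untreated and 83.7, 78.2 and 82.4 CPM in IR replicates. FANCI (ENSG00000140525, GRCh38 chr15:89243945-89317261) had 171, 177 and 177 CPM against 141, 139 and 143 CPM, the highest CPM of the 41 genes. Neither overlapped between groups, with a log2 fold change of −0.26 (SE 0.07, adjusted p = 0.0165) for FANCD2. For FANCI the log2 fold change of −0.31 (SE 0.06, adjusted p = 0.00388) stayed called in each of the 14 alternatives. FANCI, at a mean of 81.0 TPM, shares 458 exonic bases on the opposite strand with POLG, at 29.55 TPM.

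Of the 5 crosslink and junction nucleases 2 were called lower, beside 14.5% of all tested genes. SLX4, the scaffold that gathers nucleases, was lower at −0.30, and GEN1, which cuts Holliday junctions, at −0.45. MUS81 and EME1, the subunits of a structure-specific nuclease, were at 0.02 and −0.02, and FAN1, a nuclease that FANCI-FANCD2 recruits, at −0.14, none of them called. MUS81, at a mean of 22.3 TPM, shares 759 exonic bases on the opposite strand with CFL1, at 1021 TPM. EME1, at 20.3 TPM, shares 541 with LRRC59, at 96.0 TPM, and GEN1 shares 107 with SMC6. FAN1, at 12.3 TPM, shares 1507 with MTMR10, at 5.655 TPM. As for XRCC3, reads of these genes and of their partners could not be told apart without strand.

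Compared by TPM, which divides by the deposited effective length, the genes differed widely in level. That length exceeds the transcript length for 24.2% to 29.1% of transcripts in a library, so the order is not a plain comparison per length. Mean TPM in untreated cells ran from 5.8 ± 0.0936 (SD, n = 3) for FANCF, 6.22 ± 0.672 for SLX4 and 6.25 ± 0.583 for FANCE to 96.2 ± 1.28 for FANCI, 106 ± 8.03 for UBE2T, 113 ± 12.5 for RAD51AP1 and 203 ± 35.7 for RAD51C. The 3 lowest genes did not differ beyond their spread, nor did UBE2T and RAD51AP1. The value of RAD51C came in part from short transcripts, since its leading one, RAD51C-214 of 751 bases, is annotated as a retained intron and held 17.9% of its counts in untreated cells. BRCA1 was at 47 ± 5.67 TPM in untreated and 31.9 ± 5.04 TPM in IR libraries, and BRCA2 at 21.7 ± 4.82 and 13.7 ± 3.28 TPM. By TPM, unlike by CPM, the BRCA2 groups overlapped, with IR replicate 1 at 17.4 and untreated replicate 1 at 16.7.

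GC content moved with the calls. The median GC content of the transcripts was 39.5% for the 22 genes called lower, 46.6% for the 17 not called and 48.6% over all tested genes. Among the 17 genes under 40% GC, 14 were called lower (82.4%), against 32.7% of 1736 tested genes in that range. From 40% to 45% these were 4 of 10, against 23.7%, and from 45% to 50% 1 of 4, against 15.2%. At 50% GC and over 3 of 10 were called lower, FANCA, SLX4 and RAD54L, against 4.63% of 6505 genes.

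After each library's trend over GC content was removed, 16 genes were called lower, against a background of 12.1%, and 3 higher, against a background of 11.1%, and the median over the 41 genes was −0.17. RBBP8, MRE11, NBN, DNA2, WRN and RAD54B were no longer called, with log2 fold changes of −0.23 to −0.07 and adjusted p of 0.106 to 0.426. BRCA2 was at −0.59, BRCA1 at −0.40 and FANCB at −0.998 (adjusted p = 0.0495), all called lower. SLX4 and FANCA, both rich in GC, moved further down, to −0.44 and −0.29. RAD51B remained higher at 0.66, and RAD51C at 0.28 and FANCL at 0.24 were now called higher as well. All 22 genes called lower kept a value below 0.

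**Figure D3:**
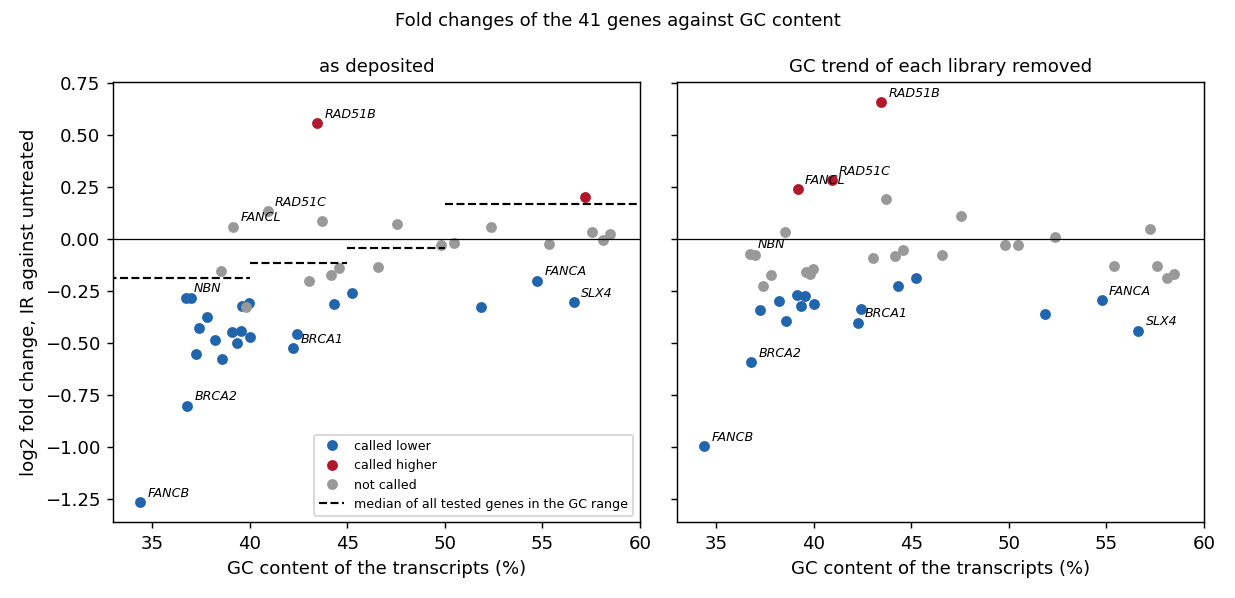
Log2 fold change of IR against untreated for each of the 41 genes against the GC content of its transcripts in percent, without (left) and with (right) removal of each library's GC trend. On the left 22 points are called lower, 14 of them under 40% GC, and the dashed median of all tested genes rises with GC, and on the right 16 are called lower.

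With an offset for the mean effective length of each gene in each library, 9 genes were called lower, against a background of 6.11%, and none higher, against a background of 5.82%. The higher calls that ended were those of RAD51B, at 0.39 (adjusted p = 0.19), and BABAM1, at 0.25 (adjusted p = 0.147). The 9 were BRCA1, BARD1, BRIP1, EXO1, RAD51AP1, RAD54L, RAD54B, FANCI and GEN1, and BRCA2 lost its call at −0.61 (adjusted p = 0.0792). All 22 kept a value below 0 and the median over the 41 genes was −0.27. The deposited effective length exceeds the length for 24.2% to 29.1% of transcripts in a library, so this offset holds more than transcript length. Over all 14 alternatives, 7 genes were called lower in each, BRCA1, BARD1, BRIP1, EXO1, RAD51AP1, FANCI and GEN1. The share of all tested genes called lower in each alternative is not given here.

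Leaving out 1 library at a time left 13 to 21 of the 41 genes called lower, and 12 of the 22 were called each time. The share of all tested genes called lower each time is not given here. The background of genes called lower ran from 8.57% without untreated replicate 2, where 16 of the 41 were lower, to 15.7% without IR replicate 1, where 21 were. Without IR replicate 3 there were also 21, against a background of 13.7%. The fewest, 13 against a background of 10.5%, came without untreated replicate 3, where RBBP8, MRE11, NBN, WRN, RAD54L, RAD54B, FANCA, FANCB and FANCD2 lost their calls at adjusted p of 0.0521 to 0.132. Without untreated replicate 1 RBBP8, MRE11, RAD54L, RAD54B, FANCA, FANCD2 and SLX4 lost theirs (adjusted p of 0.0581 to 0.0955), and without untreated replicate 2 RBBP8, NBN, WRN, RAD54L, FANCA and SLX4 (0.0565 to 0.158). Without IR replicate 1 the genes were RAD54L and FANCA (0.0503 to 0.0953), without IR replicate 2 MRE11, NBN, WRN, RAD54L, FANCA, FANCD2 and SLX4 (0.0524 to 0.130), and without the deeply sequenced IR replicate 3 WRN and RAD54B (0.0548 to 0.0698).

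Other genes of recombination and the Fanconi pathway, outside the 41, were called in both directions. Of 41 such genes tested, 12 were called lower and 6 higher, beside 14.5% and 15.5% of all tested genes. Their median log2 fold change was −0.12. FIGNL1, an ATPase that takes the recombinase off DNA, had 20.8, 16.9 and 23.6 CPM in untreated and 14.4, 11.1 and 7.04 CPM in IR replicates. The irradiated libraries were all lower and spread widely, with a log2 fold change of −0.94 (SE 0.22, adjusted p = 0.0116), and the call ended without untreated replicate 3, at −0.82 (adjusted p = 0.0539). ZGRF1, a helicase of recombination, was called lower at −0.64, and POLQ, the polymerase of microhomology-mediated end joining, at −0.63, a call that ended with the length offset, at −0.33 (adjusted p = 0.278). The highest called were FAAP20, a subunit of the Fanconi core, at 0.52, EME2, a partner of MUS81, at 0.47, and TONSL, a factor of fork repair, at 0.43. These 3 genes are rich in GC, at 68.2%, 64.7% and 65.2%, and with the GC trend removed they were at 0.00, 0.07 and 0.02, none called, while 11 genes of this list were lower and 0 higher. EME2 was also not called without untreated replicate 1, at 0.37 (adjusted p = 0.0692), without untreated replicate 3, at 0.46 (adjusted p = 0.0508), or with the length offset, at 0.18 (adjusted p = 0.704).

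Non-homologous end joining, the pathway that rejoins ends without a template, had 4 of 13 genes called lower and 4 higher, at a median of −0.05. Over all tested genes 14.5% were lower and 15.5% higher. The lower genes were PRKDC, DCLRE1C, LIG4 and NHEJ1, and PAXX, POLL and POLM were among the higher ones. With the GC trend removed 3 were lower and 2 higher, and with the length offset 1 was lower and 1 higher. PRKDC, the catalytic kinase of that pathway, had 702, 747 and 679 CPM in untreated and 526, 427 and 439 CPM in IR replicates, with a log2 fold change of −0.61 (SE 0.09, adjusted p = 0.00124). With the length offset its value turned to 0.07 (adjusted p = 0.792).

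Cell cycle genes moved in the same libraries. Of 39 S phase genes outside the 41, 23 were called lower and 0 higher, with a median log2 fold change of −0.23, and their sum was 5047 to 5405 CPM in untreated and 4308 to 4393 CPM in IR libraries. Of 54 G2/M genes 39 were called lower and 1 higher, with a median of −0.39. Over all tested genes 14.5% were called lower and 15.5% higher. Members of the S phase list that are also among the 41, such as BLM, BRIP1 and EXO1, were left out of it. The part of the cell cycle in the lower levels of recombination genes was not tested. Of 27 p53 targets tested, 27 were called higher, with a median of 0.80. That list was chosen with earlier results of these data known, so the count is no independent check.

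**Figure D4:**
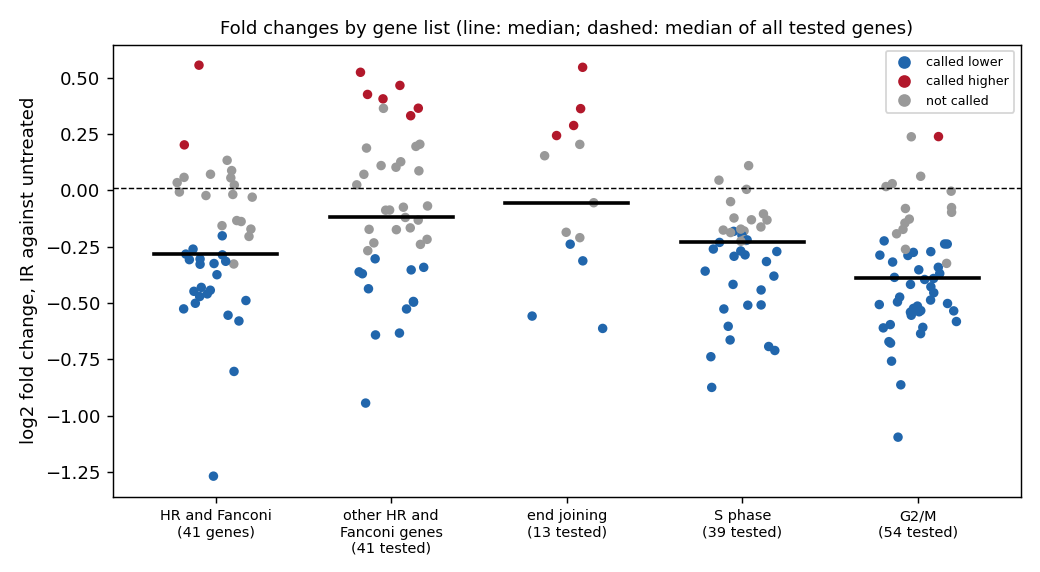
Log2 fold change of IR against untreated for each gene of 5 lists, with a line for the median of the list and a dashed line for the median of all tested genes, 0.01. The medians are −0.28 for the 41 recombination and Fanconi genes, −0.12 for other genes of these pathways, −0.05 for end joining, −0.23 for S phase and −0.39 for G2/M.

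The estimated transcripts of each gene gave a further layer. The leading transcript was taken by the mean of its untreated and IR shares. It was the canonical protein-coding one for 28 of the 41 genes and another protein-coding one for 6. It was annotated for nonsense-mediated decay in 6 genes, FANCG, WRN, MUS81, FAN1, ABRAXAS1 and RAD50, and as a retained intron in RAD51C. ABRAXAS1-202 held 73.2% ± 5.86 (SD, n = 3) of the counts of ABRAXAS1 in untreated and 76.0% ± 3.19 in IR libraries. RAD50-209 held 70.7% ± 4.39 and 77.1% ± 2.20 of those of RAD50.

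Transcript usage, tested by diffSpliceDGE with a Simes p per gene, was called in 1 of 39 testable genes, against a background of 2.68%. An unadjusted p under 0.05 was found for 4, and its share over all tested genes is not given here. The called gene was ABRAXAS1 (adjusted p = 0.00127), through ABRAXAS1-206, a protein-coding transcript of 1869 bases. It had 1.19, 2.46 and 2.27 CPM in untreated replicates 1, 2 and 3 and was listed at 0 in each of the IR replicates, where 3 counts would have been 0.143, 0.160 and 0.0654 CPM. This transcript held 6.05% ± 2.33 of the gene's counts in untreated cells, and the call ended without IR replicate 3. In simulated counts with the spread of each transcript in the files, the test recovered 2% of genes whose transcript changed 4-fold and called 77 unchanged genes, so that neither a call nor its absence says much.

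BRCA2 shows how unsteady such shares were between libraries. The canonical BRCA2-201 held 92.3, 96.1 and 20.9% of the counts in untreated replicates 1, 2 and 3 and 82.7, 47 and 52.7% in the IR replicates. BRCA2-206, a nearly full-length coding transcript, held 4.58, 0 and 72.4% in untreated libraries, so that untreated replicate 3 had exchanged one for the other. BRCA2-207, of 11763 bases and annotated for nonsense-mediated decay, was listed at 0 in all 3 untreated libraries and had 2.37, 15.6 and 8.88 CPM in the IR replicates. Usage of BRCA2 was not called (adjusted p = 0.112). The canonical XRCC3-211 was at 0, 0 and 15 CPM in untreated and 14.5, 19.8 and 12.9 CPM in IR replicates, and XRCC3-209 at 16.2, 16.6 and 0 CPM in untreated. These transcripts overlap over nearly their whole length, and kallisto assigns shared reads by likelihood.

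**Figure D5:**
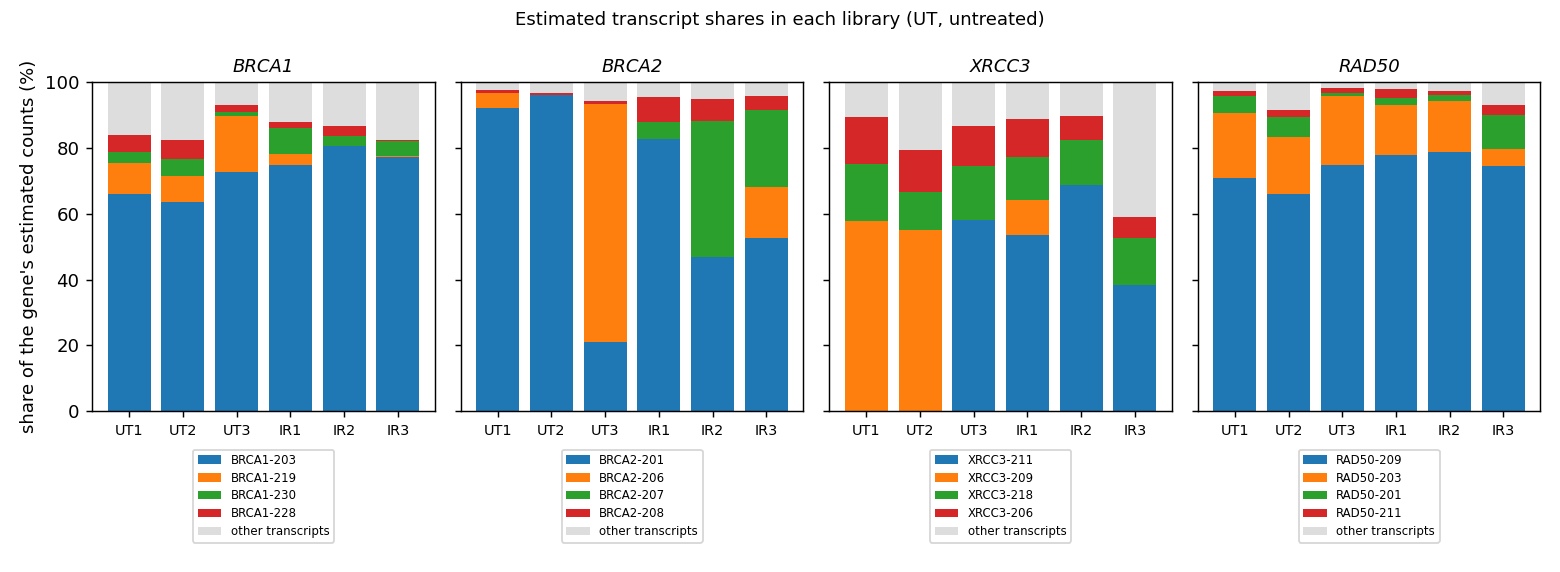
Share of each gene's estimated counts in percent that went to its 4 leading transcripts and to all others, in each of the 6 libraries, for BRCA1, BRCA2, XRCC3 and RAD50. BRCA1-203 and RAD50-209 lead in each library, whereas the leading transcript of BRCA2 and XRCC3 differs between libraries of 1 group.

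FANCB and BRCA1 showed further differences by transcript that were not called. The canonical FANCB-206 had 6.32, 1.58 and 8.18 CPM in untreated and 0, 0 and 3.62 CPM in IR replicates, and the retained intron FANCB-203, of 559 bases, had 1.24, 0.878 and 0.52 CPM against 1.59, 1.14 and 0.638 CPM. In IR replicates 1 and 2 the short FANCB-203 thus made up 52.4% and 75.1% of the gene's few counts. The canonical BRCA1-203 had 70.2, 70.8 and 82.2 CPM in untreated and 63.5, 62.1 and 60 CPM in IR replicates, each irradiated value below each untreated one. BRCA1-219, a shorter coding transcript, had 9.94, 8.78 and 19.4 CPM against 2.7, 0 and 0.307 CPM.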

How the data were processed

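RNA was sequenced from 3 untreated and 3 irradiated U-2 OS libraries. The authors removed adaptors with fastp and assigned reads with kallisto to GENCODE release 37 of GRCh38. The deposited estimated counts per transcript are not normalized, the TPM values were made by the authors from these counts, the effective length and the library total, and the deposited length and effective length are in bases. The filters and bias settings of kallisto are not given in the sources used here. The scRNA-seq and imaging experiments of the study were not analysed here.

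Of 161171 transcripts, 161048 remained after copies on X and Y were merged, and 158591 of these matched GENCODE release 44 by identifier. The unmatched 2457 held 1.54% to 1.80% of the counts of a library and were left out. Per gene, the sum of its estimated counts was rounded, and genes were filtered with filterByExpr. The quasi-likelihood test used TMM scaling, glmQLFit and glmQLFTest (edgeR 4.0.16, limma 3.58.1, R 4.3.3) over 14323 genes, with a threshold of 0.05 on the adjusted p and 95% confidence intervals. DESeq2 1.42.0 was an alternative. TPM served for levels between genes and as weights for GC content and effective length. GC trends were removed by a loess fit of span 0.3 per library. Transcript usage was tested by diffSpliceDGE with Simes p-values.

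Values in every library were given for genes called at a change of more than 0.5 on the log2 scale, for up to 5 called genes of lowest p in each direction, and for BRCA1, BRCA2, PALB2, BARD1, FANCD2, FANCI, FANCA, RAD50, MRE11, NBN, XRCC3 and RAD52 whatever their result. Of the called genes of the other pathway list, the 3 furthest up and the 3 furthest down were named, PRKDC and other called end joining genes being named after their values were seen, as were the transcripts of genes not called for usage. Of 42 listed other recombination and Fanconi genes 41 were found, and 27 of 28 p53 targets were tested. The 41 genes, the lists and the tests were chosen with earlier results of these data known. Some genes of the lists are not reported here by name. The S phase and G2/M lists were those distributed with Seurat.

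Scripts were tested on simulated counts. For IR against untreated, with 14228 genes, the test found 91% of genes with a log2 change of 1 and 64% of genes with one of 0.5, and called 5 unchanged genes. For transcript usage with the spread of each transcript in the files, 2% of 200 genes changed 4-fold were recovered among 10357 genes and 77 unchanged ones were called, and with a dispersion of 0.01 for each transcript 100% were recovered among 10615 genes. Replicates of a group differed by more than sampling noise, the chi-square per gene being 3.36 to 29.4. Alternatives were no filter, a minimum of 10 counts in every library, the size factors and the Wald test of DESeq2, a likelihood ratio test in edgeR, a block for the replicate number, removal of GC trends, an offset for effective length, and 6 analyses each without 1 library. The floor of 3 counts covers counting error only, whereas standard errors and confidence intervals come from the fit and hold the spread between libraries.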

Additional observations from a re-analysis of the deposited data

How the results depend on the processing

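The counts of 22 lower and 2 higher genes stayed within 1.5 times under both filters, with the size factors or the Wald test of DESeq2, and with the likelihood ratio test of edgeR. With the effective length offset 9 of the 41 genes were lower and 0 higher, beside 875 lower and 833 higher of all 14323 genes, compared with 2080 and 2227 without it. With the GC trend removed the median log2 fold change was −0.17. Leaving out each library gave 13 to 21 lower genes, beside 8.57% to 15.7% of all tested genes. It gave 1 to 2 higher genes, beside 8.91% to 14.6%. The median was −0.30 to −0.24, and 0 to 2 genes had changed transcript usage. The fewest lower genes came without untreated replicate 3, and the 0 for usage came without IR replicate 3. Usage was called in 2 genes, ABRAXAS1 and BRCA2, with at least 10 counts in every library of a group, and likewise with the replicate block. For usage, the share over all tested genes in these alternatives is not given here. The cause of these shifts was not tested.

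Both groups carry replicate numbers 1 to 3, and whether these pair the libraries is not given in the sources used here. The deviations of same-numbered libraries correlated at −0.02, 0.01 and −0.05. Such values show no shared effect but cannot tell whether libraries were handled in pairs. With the replicate block 19 of the 41 genes were lower, beside 11.3% of all tested genes, and 1 was higher, beside 12.1%, and not every library correlated best with its own number.

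Of the 574 log2 fold changes of the 41 genes under the 14 alternatives, 485 kept direction and side of the threshold, 65 lost the call, 5 gained one and 19 changed sign. None of the genes that changed sign was called. With the GC trend removed these were ABRAXAS1 at 0.035, XRCC3 at −0.13 and MUS81 at −0.17. With the length offset they were UIMC1 at −0.21, XRCC3 at −0.28, FANCE at 0.078 and FANCG at 0.10. Over the analyses without 1 library, XRCC3 ranged from −0.040 to 0.085, RAD52 from −0.077 to 0.028, FANCE from −0.093 to 0.059, FANCF from −0.091 to 0.17, MUS81 from −0.027 to 0.072 and EME1 from −0.087 to 0.081. Depth limits FANCB most, with 29 to 247 counts in a library.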
